A study of Symphysodon aequifasciata with 2 samples.

Results

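Potassium channels are the membrane pores through which potassium leaves a cell, and they set the resting voltage of neurons, end each action potential and pace repeated firing. In the brain transcriptome of the discus (Symphysodon aequifasciata, an ornamental cichlid), 100 of 40209 assembled features had a best protein match whose name held both "potassium" and "channel". The 8 features matched to hyperpolarization-activated HCN channels, which also let sodium through, were left out by the same rule. The rule used names alone and no measured value, but the members were chosen with earlier results of these data known. The 100 features matched 51 genes in 7 classes: 44 features of voltage-gated pore subunits, 6 of auxiliary subunits, 19 of inward rectifiers, 15 of calcium-activated, 3 of sodium-activated and 11 of tandem-pore channels, with 2 others.

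The study sequenced poly(A) RNA from the brain of 1 female and 1 male discus, both aged 1 year and killed in 100 mg/L of the anaesthetic MS-222. The library titled Tbrain carries the gender label female and the one titled Obrain the label male. The initials are not explained in the labels, and each direction given here depends on the gender labels being right. With 1 library per sex there was no replicate error and no test between sexes, and a difference of sex cannot be told apart from one between these fish or libraries. In whole brain RNA, fewer cells of a type and less RNA per cell cannot be told apart. All levels below are in TPM, a unit of transcript abundance that is already divided by feature length and scaled to a fixed total per library. Ratios are log2((female TPM + 0.5) / (male TPM + 0.5)), so that a negative ratio means a lower value in the female library. Plain quotients of female over male TPM are given with a 95% exact interval for counting error, from the number of reads behind each value. These intervals do not cover the spread between fish, and for features over 800 bases the read numbers are extrapolated from shorter ones and were not checked.

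Voltage-gated channels open when the membrane depolarizes. They fall into families such as Kv1, Kv2, Kv3, Kv4 and KCNQ, each formed by tetramers of pore subunits. Inward rectifiers pass potassium more easily into the cell than out and hold the resting voltage, in neurons and above all in glia. Calcium-activated and sodium-activated channels couple spiking to a hyperpolarization that follows it. Tandem-pore channels, whose subunits each carry a pair of pore loops, leak potassium at rest.

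Brain identity and the state of the libraries were checked on marker genes matched by symbol. Of 9 neuron markers 7 were found, with summed levels of 3389 TPM in the female and 2998 TPM in the male library. The gene snap25 carried that sum: the other 6 summed to 747 TPM in the female and 797 TPM in the male library, and the median ratio of the 7 was −0.16. One of them, elavl3, was past 2-fold, at 25.9 TPM in the female and 52.7 TPM in the male library. All 7 radial glia markers were found, at 3553 TPM in the female and 2799 TPM in the male library, and 2 of them, slc1a2 and slc1a3, are also among the potassium handling genes below. Here fabp7 set the direction: the other 6 summed to 1110 TPM in the female and 1147 TPM in the male library, and the median ratio of the 7 was 0.05. Of 7 oligodendrocyte markers 3 were found, at 118 TPM in the female and 99.9 TPM in the male library. Retina gave 1 of 8 (rho, at 12.2 TPM in the female and 11.7 TPM in the male library). Skeletal muscle gave 1 of 6 (tnnt3, at 10.1 TPM in the female and 24.7 TPM in the male library), pituitary 1 of 7 (pomca, at 22.7 TPM in the female and 4.4 TPM in the male library) and blood 1 of 4. The blood marker, the haemoglobin gene hbaa, measured 644 TPM in the female and 305 TPM in the male library. The part of these differences in the results below was not tested.

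In these libraries the potassium channel features were lower in the female brain more often than not. Their median ratio was −0.26, against −0.07 over all features of the table. Of the 100 features, 74 had a ratio below 0 and 26 above it, where 56.2% of all features and 58.1% of those with a protein match were below 0. None reached 2-fold towards the female library, as 5.02% of all features and 3.52% of those with a protein match did. Towards the male library 20 reached it, as did 10.1% of all features and 7.72% of those with a protein match. The summed level was 1238 TPM in the female and 1604 TPM in the male library. Members ranged in length from 204 to 4441 bases.

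**Figure D1:**
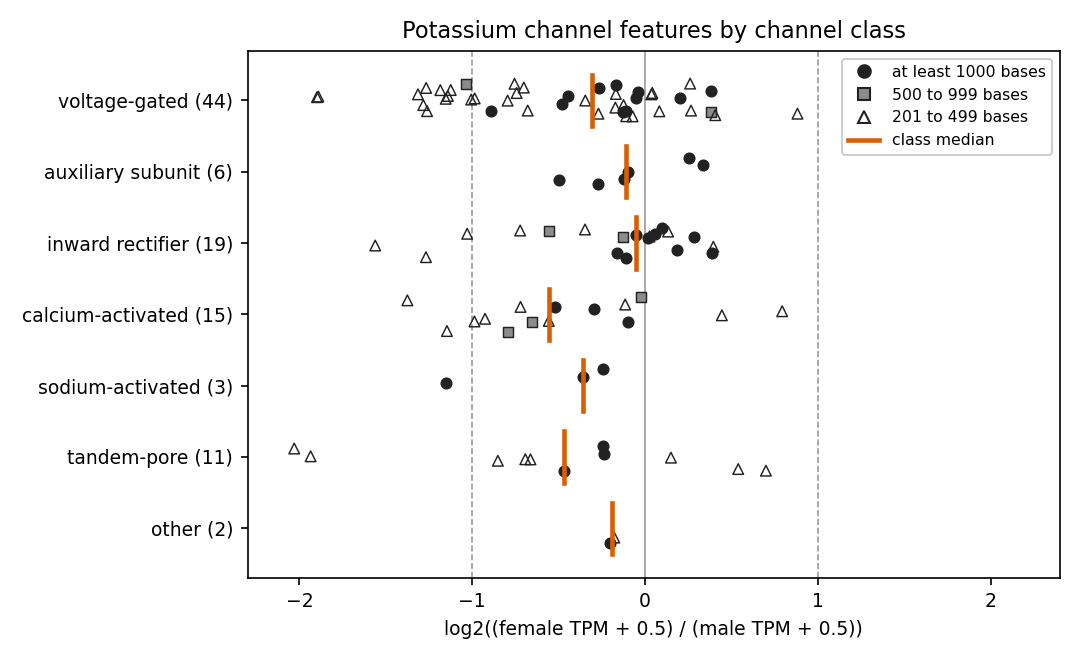
Ratio of female over male of each potassium channel feature (horizontal axis, log2 scale with 0.5 TPM added) by channel class, with the number of features in brackets. Filled circles are features of at least 1000 bases, grey squares are features from 500 up to 1000 bases and open triangles are those under 500 bases. Orange bars are class medians and dashed lines mark 2-fold. No feature lies beyond 2-fold on the female side.

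The spread of the ratios was wider among short features. Of the 57 channel features under 500 bases, 18 were past 2-fold towards the male library, a share of 31.6%, and their median ratio was −0.69. Over all 23210 features of that length the median was −0.14, with 8.15% of them past 2-fold on the female side and 16.2% on the male side. Among those with a protein match the shares were 8.13% on the female side and 17.5% on the male side. Of the 43 channel features of at least 500 bases, 2 were past 2-fold towards the male library, beside 1.91% of all features of that length and 1.71% of those with a protein match. None was past 2-fold towards the female library, beside 0.747% and 0.682%. The interval of the quotient lay below 1 for 25 of these 43 features and above 1 for 8. The same count was not made over all features of that length, so it cannot be read as particular to the channels. The quotients were also not centred on the median ratio of all features, −0.07. The median of the 36 channel features of at least 1000 bases was −0.13, against −0.05 over all features of that length. The short features rested on few reads. The 18 short ones past 2-fold had 2 to 35 reads in the female library and 10 to 89 reads in the male library. The interval excluded 1 for 19 of the 20 features past 2-fold and lay wholly beyond 2-fold for 2 of them, KCNT1 and a KCNA1 feature of 333 bases. These intervals were not widened for having looked at 100 features. The 20 were picked on the same reads, so that their intervals excluded 1 follows in part from the choice and is no separate support. Features are listed only with at least 6.01 TPM in the higher library, so some are kept through 1 library alone.

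**Figure D2:**
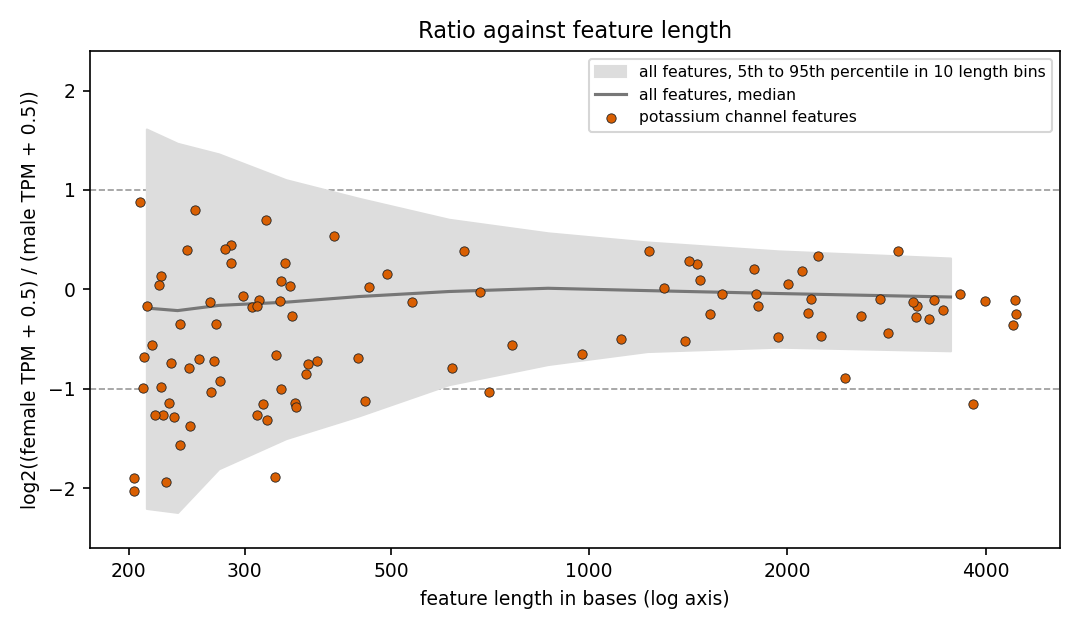
Ratio of female over male (vertical axis, log2 scale with 0.5 TPM added) against feature length in bases (log axis). Orange points are the 100 potassium channel features, the grey band spans the 5th to the 95th percentile of all features in 10 length bins and the grey line is their median. KCNT1, of 3823 bases, is the lowest of the long features, at −1.15.

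The voltage-gated class as a whole summed to 514 TPM in the female and 698 TPM in the male library, with a median ratio of −0.31. Of its 44 features 12 were past 2-fold towards the male library, beside 10.1% of all features. Among its 31 features under 500 bases 11 were, beside 16.2% of all features of that length. Among its 13 longer features 1 was, beside 1.91%. Fragments of 1 gene are counted apart, so sums over features weigh a broken gene more than an intact one.

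KCNQ channels carry the M-current, a slow potassium current that restrains repetitive firing and that muscarinic acetylcholine receptors shut off. All 8 KCNQ features were lower in the female library, beside 56.2% of all features, with a median ratio of −0.94. Of the 8, 5 were under 500 bases. Past 2-fold were 3, beside 10.1% of all features towards the male library and 16.2% of those under 500 bases.

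KCNQ3, a subunit of the M-current channel, was found only as short features. The longer, of 313 bases, measured 5.01 TPM in the female and 12.7 TPM in the male library. The shorter, of 224 bases, measured 8.34 TPM in the female and 17.0 TPM in the male library, on 8 and 18 reads. KCNQ5, another subunit of this current, gave the most abundant feature of the whole set, 239 bases at 62.9 TPM in the female and 80.1 TPM in the male library. That quotient had an interval of 0.568 to 1.08, which held 1.

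Kv1 channels sit on axons and near nodes, where they open close to threshold. Their 8 features had a median ratio of −0.80, and 6 of them were under 500 bases. Past 2-fold were 4, all under 500 bases, beside 16.2% of all features of that length towards the male library. The feature with the symbol KCNA1, of 333 bases, measured 3.75 TPM in the female and 15.3 TPM in the male library, or 11 and 50 reads, with an interval of the quotient of 0.115 to 0.479. Of the 4 features matched to KCNA1 3 were lower in the female library. The other, of 345 bases and with the symbol Kcna3, measured 7.60 TPM in the female and 6.26 TPM in the male library. Its interval of 0.661 to 2.24 held 1 and did not overlap that of the 333-base feature. A KCNA10 feature of 457 bases measured 4.82 TPM in the female and 11.1 TPM in the male library, over 35 and 89 reads. KCNA2, the other main axonal subunit, measured 9.81 TPM in the female and 10.6 TPM in the male library. The only long Kv1 features matched KCNA3, which is known from lymphocytes as well as neurons, and they went apart. One, of 1777 bases, measured 7.22 TPM in the female and 6.21 TPM in the male library, and the other, of 1935 bases, 5.56 TPM in the female and 7.97 TPM in the male library.

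Ether-a-go-go channels (the KCNH genes) slow firing or set the resting voltage. Of their 8 features 7 were lower in the female library, beside 56.2% of all features, with a median of −0.46. Under 500 bases were 7 of the 8. Past 2-fold were 3, beside 10.1% of all features towards the male library and 16.2% of those under 500 bases. KCNH8 features of 204 and 324 bases measured 7.25 and 3.73 TPM in the female and 28.4 and 10.02 TPM in the male library. The larger of these differences rested on 6 and 26 reads. The third KCNH8 feature measured 6.62 TPM in the female and 6.44 TPM in the male library. Its interval of 0.557 to 1.89 overlapped those of the other KCNH8 features, at 0.086 to 0.634 and 0.162 to 0.782. A KCNH7 feature of 234 bases measured 8.60 TPM in the female and 21.7 TPM in the male library. That feature had 9 and 25 reads and an interval of 0.163 to 0.879. The KCNH7 feature of 1806 bases measured 5.47 TPM in the female and 6.22 TPM in the male library. Its interval of 0.757 to 1.02 overlapped that of the shorter feature. KCNH1 measured 8.76 TPM in the female and 15.0 TPM in the male library, on 9 and 17 reads.

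Kv4 channels carry the fast A-type current of dendrites. KCND3 had the highest ratio of the 11 voltage-gated features of at least 1000 bases: its feature of 2945 bases measured 27.9 TPM in the female and 21.2 TPM in the male library, a quotient of 1.31 (1.24 to 1.39). The other KCND3 features, of 222 and 286 bases, had ratios of 0.04 and 0.27, and both intervals held 1. KCND2 was near equal over 3651 bases, at 16.1 TPM in the female and 16.6 TPM in the male library. Its short feature on the same identifier stem, of 374 bases, measured 9.22 TPM in the female and 15.9 TPM in the male library. KCND1 was the 1 of 6 Kv4 features past 2-fold, beside 10.1% of all features towards the male library. It measured 8.70 TPM in the female and 21.6 TPM in the male library on 8 and 22 reads.

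Kv3 channels close quickly and let fast-spiking neurons fire at high rates. They summed to 106 TPM in the female and 109 TPM in the male library, and none of 7 features was past 2-fold. Of all features 10.1% were past 2-fold towards the male and 5.02% towards the female library, so 0 of 7 does not set Kv3 apart. KCNC1 features of 3342 and 2842 bases measured 19.2 and 16.6 TPM in the female and 20.7 and 22.7 TPM in the male library. The long KCNC2 feature, of 3103 bases, measured 13.3 TPM in the female and 14.6 TPM in the male library. Its companion of 646 bases on the same stem measured 24.4 TPM in the female and 18.6 TPM in the male library, so fragments of that stem lay on both sides of 1, with intervals of 0.848 to 0.978 and 1.12 to 1.54.

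Kv2 channels are the delayed rectifiers of the neuronal cell body. They appeared only as 5 features under 500 bases, none past 2-fold and none with an interval that excluded 1. Of all features of that length 16.2% were past 2-fold towards the male and 8.15% towards the female library. A KCNB2 feature of 256 bases measured 9.22 TPM in the female and 15.3 TPM in the male library. The silent subunits KCNF1 and KCNG3 form no channel alone and modify Kv2. KCNF1 measured 10.1 TPM in the female and 10.5 TPM in the male library over 1593 bases. KCNG3 measured 5.82 TPM in the female and 13.6 TPM in the male library, over 320 bases and 15 and 39 reads.

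**Figure D3:**
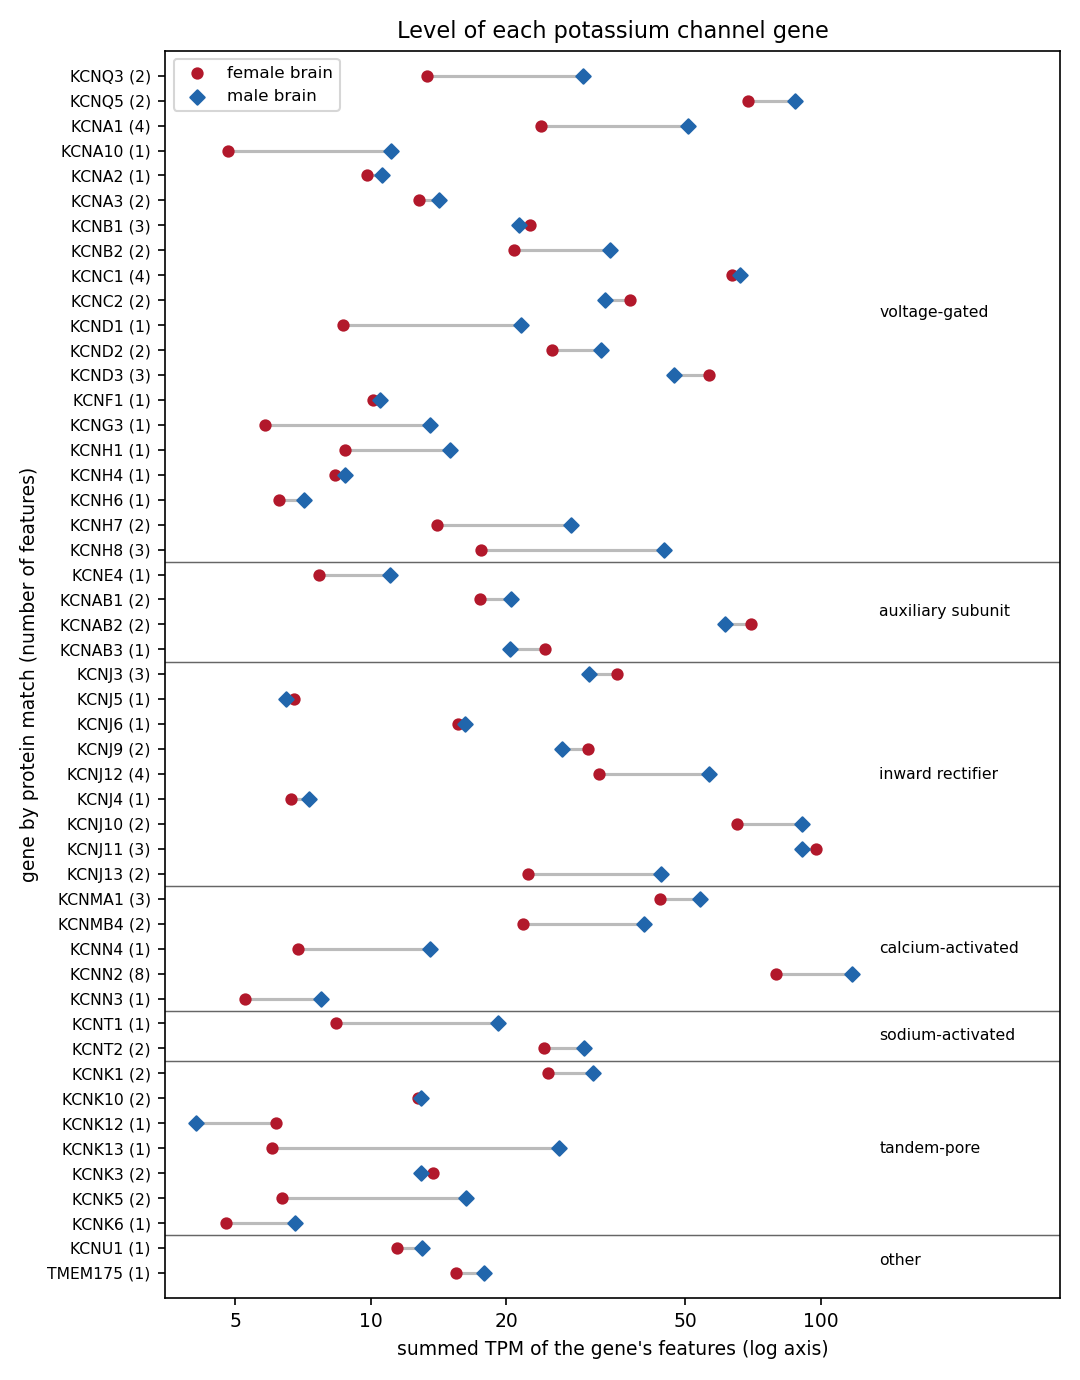
Summed TPM of the features of each of 49 potassium channel genes (log axis), by protein match and class, with the number of features in brackets. Red circles are the female and blue diamonds the male library. KCNJ11, at 97.9 TPM in the female and 90.8 TPM in the male library, and KCNN2 are among the most abundant, and KCNK12 lies furthest towards the female side.

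Auxiliary subunits had a median ratio of −0.11, with 4 of 6 features below 0, and were the one class with a higher sum in the female library. They summed to 120 TPM in the female and 113 TPM in the male library. The most abundant of them, of 2227 bases, set this direction, and without it the sum was lower in the female library. All 6 features were longer than 1000 bases and none was past 2-fold. Of all features of at least 1000 bases 1.01% were past it towards the male and 0.373% towards the female library. The beta subunit KCNMB4, with a sum of 21.8 TPM in the female and 40.5 TPM in the male library, was counted with the calcium-activated channels. Counted among the auxiliary subunits instead, it would have made their sum lower in the female library. The cytoplasmic Kv beta subunits, which have an aldo-keto reductase fold and bind Kv1 channels, made up 5 of the 6 features, and all 5 carried that domain hit. A feature of 2227 bases matched to KCNAB2 but with the symbol kcnab3 measured 50.9 TPM in the female and 40.2 TPM in the male library, a quotient of 1.26 (1.21 to 1.33). KCNAB3 measured 24.4 TPM in the female and 20.4 TPM in the male library. The other KCNAB2 feature measured 19.4 TPM in the female and 21.1 TPM in the male library, and the longer KCNAB1 feature 11.6 TPM in the female and 14.1 TPM in the male library. KCNE4, a single-span subunit that damps KCNQ and Kv1 currents, measured 7.67 TPM in the female and 11.1 TPM in the male library, a quotient of 0.694 (0.588 to 0.814).

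The inward rectifier class had a median ratio of −0.05, which became 0.024 after centring on the median of all features, with 9 features above 0 and 10 below it. It summed to 312 TPM in the female and 370 TPM in the male library. Its 9 features of at least 1000 bases summed to 119 TPM in the female and 111 TPM in the male library, and 6 of them were above 0. Of its 8 features under 500 bases 5 were below 0, with a median of −0.54 against −0.14 over all features of that length. They held all 3 features past 2-fold, beside 16.2% of all features of that length towards the male library.

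The G protein-activated channels (GIRK) open when inhibitory receptors such as GABA-B release G protein beta-gamma subunits. None of their 7 features was past 2-fold, 5 were above 0, and the median ratio was 0.06. At least 1000 bases long were 6 of the 7. Of all features of that length 1.01% were past 2-fold towards the male and 0.373% towards the female library. KCNJ3, the subunit common to most neuronal GIRK channels, measured 12.4, 11.5 and 11.4 TPM in the female library over 1232, 1300 and 2105 bases. The same features measured 9.31, 11.3 and 9.94 TPM in the male library, so all 3 quotients were above 1, 1 of them with an interval that held 1. KCNJ6 measured 15.6 TPM in the female and 16.2 TPM in the male library. The KCNJ9 feature of 3147 bases measured 9.78 TPM in the female and 11.02 TPM in the male library. Another matched to KCNJ9, of 245 bases and with the symbol KCNJ5, measured 20.6 TPM in the female and 15.6 TPM in the male library. Its interval of 0.702 to 2.53 held 1. KCNJ5 by match measured 6.76 TPM in the female and 6.48 TPM in the male library.

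KCNJ11 forms the pore of the ATP-sensitive channel, which ties excitability to energy state. Its 3 features all had quotients above 1: 59.6 TPM in the female and 58.6 TPM in the male library over 463 bases, 8.24 TPM in the female and 7.66 TPM in the male library over 1472 bases, with both intervals holding 1. The remaining feature, of 1415 bases, carries the symbol KCNJ8, a close relative, and measured 30.01 TPM in the female and 24.5 TPM in the male library. Its quotient was 1.22 (1.13 to 1.32).

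KCNJ10 is the main glial inward rectifier and takes up potassium released by firing neurons. Its feature of 763 bases measured 51.7 TPM in the female and 76.4 TPM in the male library, a quotient of 0.677 (0.625 to 0.734). Its long feature, of 4433 bases, measured 13.5 TPM in the female and 14.6 TPM in the male library, at 0.925 (0.873 to 0.981). A further feature with the symbol KCNJ10 fell outside the rule because its protein match is a hypothetical protein. It was the most abundant channel feature by symbol, at 118 TPM in the female and 201.3 TPM in the male library over 503 bases, and had a ratio of −0.77. Of the radial glia markers, 4 had a ratio above 0: vim at 0.59, fabp7 at 0.56, s100b at 0.32 and gfap at 0.05. The other 3 were below it, slc1a2 and glul at −0.34 each and slc1a3 at −0.06. Their part in the KCNJ10 difference was not tested.

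KCNJ12 and KCNJ4 are strong rectifiers of the Kir2 family. KCNJ12 was seen in 4 features of 224 to 271 bases. They measured from 6.38 to 9.19 TPM in the female and from 7.56 to 19.8 TPM in the male library. Of the 4, 2 were past 2-fold towards the male library, beside 16.2% of all features under 500 bases. These 2 had 7 and 12 reads in the female and 24 and 28 reads in the male library. KCNJ4, over 538 bases, measured 6.66 TPM in the female and 7.31 TPM in the male library. KCNJ13, a channel of transporting epithelia such as the choroid plexus, measured 8.27 and 14.1 TPM in the female and 20.6 and 23.6 TPM in the male library, on features under 500 bases. Its quotients rested on 8 and 22 reads and on 21 and 39 reads.

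**Figure D4:**
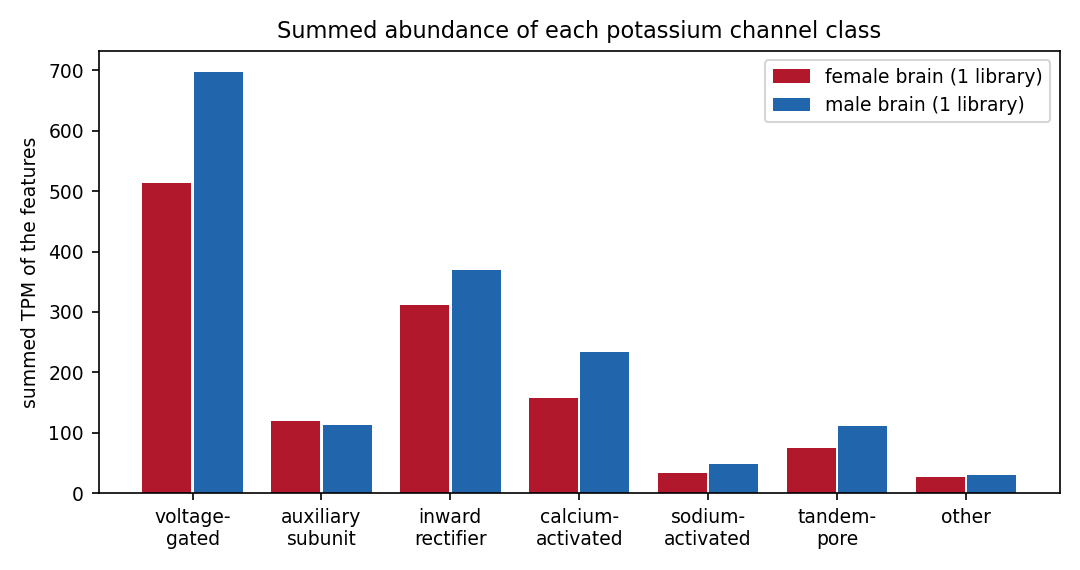
Summed TPM of the potassium channel features of each class in the female (red) and male (blue) library, 1 library each and so without error bars. Auxiliary subunits are the one class with a higher sum in the female library, at 120 against 113 TPM. Their most abundant feature set this direction. It would also reverse if the beta subunit KCNMB4, here counted as calcium-activated, were added to them.

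Of the 15 calcium-activated channel features 13, or 86.7%, had a ratio below 0, beside 56.2% of all features. Their median ratio was −0.56, with sums of 157 TPM in the female and 233 TPM in the male library. Only 2 of the 15 were past 2-fold, both under 500 bases, beside 10.1% of all features towards the male library. BK channels open with voltage and calcium together and shorten the action potential. The pore subunit KCNMA1 measured 23.7, 10.96 and 9.28 TPM in the female and 25.4, 13.6 and 14.9 TPM in the male library, over 2171, 3283 and 976 bases. All 3 intervals lay below 1, at 0.872 to 0.993, 0.751 to 0.871 and 0.531 to 0.730. The neuronal beta subunit KCNMB4, which slows BK gating, measured 15.1 TPM in the female and 30.5 TPM in the male library over 210 bases. That feature had 13 and 29 reads and an interval of 0.237 to 0.985. Its second feature, on the same stem and of 217 bases, measured 6.63 TPM in the female and 9.99 TPM in the male library. With 6 and 10 reads its interval of 0.198 to 2.01 held 1.

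SK channels open with calcium alone and produce the slow pause after a spike train. Of their 9 features 7 were lower in the female library, beside 56.2% of all features. The most abundant, of 620 bases, is matched to KCNN2 but carries the symbol KCNN3, and measured 23.6 TPM in the female and 41.2 TPM in the male library. Its quotient was 0.571 (0.498 to 0.656). A neighbour on the same stem, of 682 bases, measured 7.88 TPM in the female and 8.03 TPM in the male library, so the intervals of these fragments of 1 stem did not overlap. The feature matched to KCNN3, of 1400 bases, measured 5.26 TPM in the female and 7.76 TPM in the male library, at 0.678 (0.570 to 0.800). KCNN4, the intermediate-conductance channel of blood and immune cells, measured 6.91 TPM in the female and 13.6 TPM in the male library on 11 and 24 reads.

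Sodium-activated channels held the largest difference among long features. KCNT1, a large channel subunit opened by the sodium that enters during spiking, measured 8.37 TPM in the female and 19.2 TPM in the male library over 3823 bases. With 1130 and 2796 reads its quotient was 0.436 (0.407 to 0.467), a ratio of −1.15. It was the only one of the 36 channel features of at least 1000 bases past 2-fold, beside 1.01% of all features of that length towards the male and 0.373% towards the female library. The features matched to KCNT2, a relative of KCNT1, measured 16.2 and 8.09 TPM in the female and 19.3 and 10.5 TPM in the male library, over 4441 and 4395 bases. Their quotients were 0.841 (0.798 to 0.886) and 0.770 (0.717 to 0.829), and neither interval overlapped that of KCNT1. All 3 features share the stem TRINITY_DN13507_c1 and the smaller of the KCNT2 features carries the symbol KCNT1, so reads may be shared between them.

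**Figure D5:**
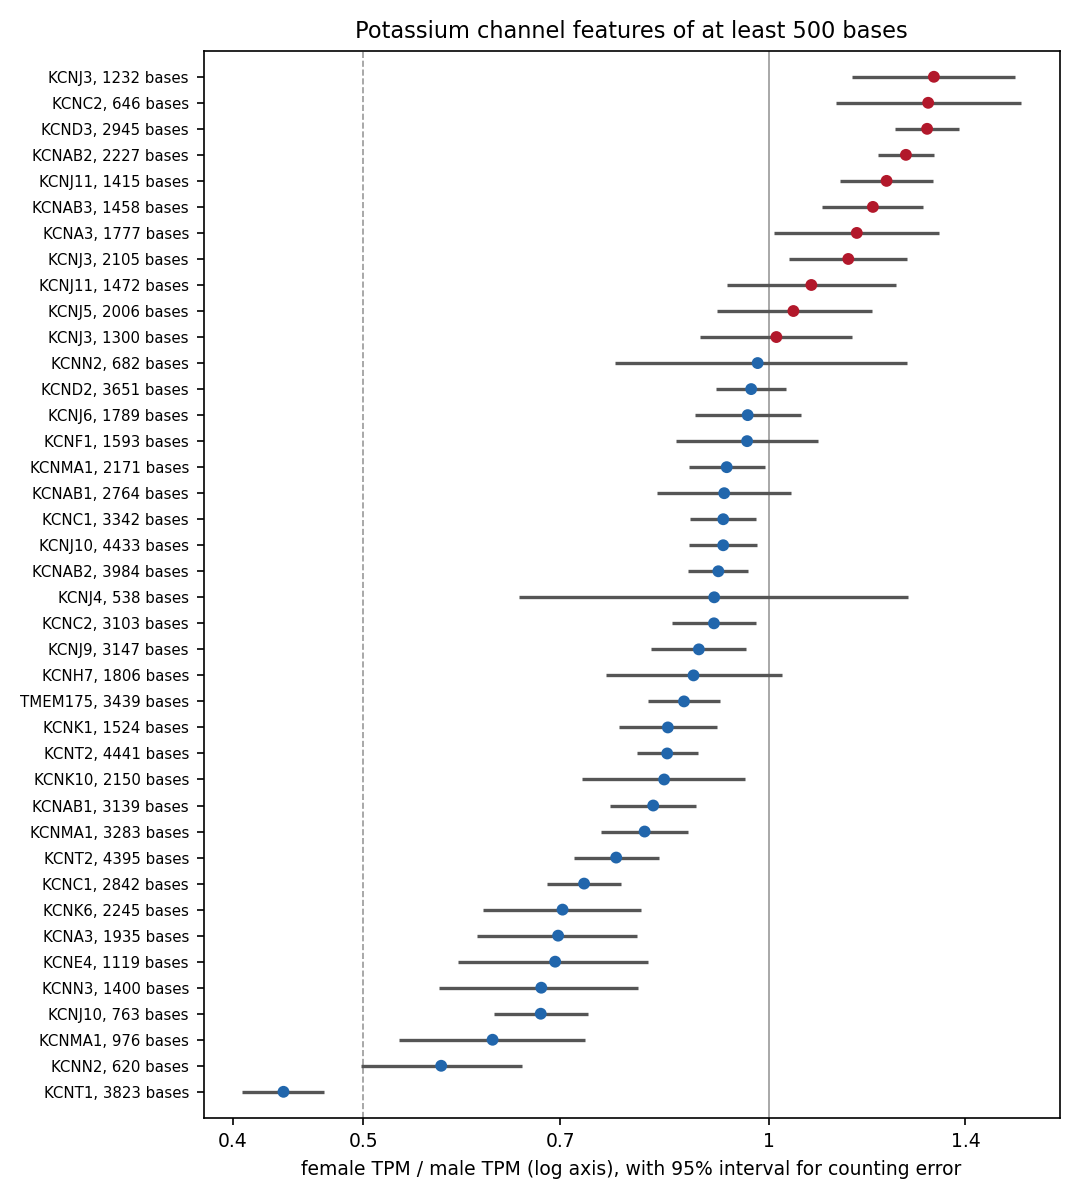
Quotient of female over male TPM (log axis) for 40 potassium channel features of at least 500 bases, with 95% exact intervals for counting error. Blue points lie below 1 and red points above it, and the dashed line marks a quotient of 0.5. KCNT1, at 0.436, has the lowest quotient, and KCNJ3, KCNC2 and KCND3 have the highest.

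Tandem-pore channels gave 11 features, 8 of them lower in the female library, beside 56.2% of all features. They summed to 74.6 TPM in the female and 111 TPM in the male library. KCNK1 had the highest mean of the libraries among them, at 21.1 TPM in the female and 25.1 TPM in the male library over 1524 bases, a quotient of 0.842 (0.775 to 0.915). The stretch- and lipid-gated KCNK10 measured 5.11 TPM in the female and 6.11 TPM in the male library over 2150 bases. KCNK6 measured 4.78 TPM in the female and 6.80 TPM in the male library, a quotient of 0.703 (0.613 to 0.804). The lowest ratio of the whole set, −2.03, belonged to KCNK13 over 204 bases, at 6.04 TPM in the female and 26.2 TPM in the male library on 5 and 24 reads. KCNK13 is known in mammals from microglia. KCNK5, an alkaline-activated channel, measured 2.02 TPM in the female and 9.14 TPM in the male library, but on 2 and 10 reads, and its interval of 0.0235 to 1.04 held 1. The acid-sensitive KCNK3 had features on both sides, at 10.2 and 3.60 TPM in the female and 6.07 and 6.90 TPM in the male library. KCNK12 measured 6.17 TPM in the female and 4.09 TPM in the male library, with an interval of 0.873 to 2.64.

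The remaining features were TMEM175, a lysosomal potassium channel of another fold, and a short feature matched to KCNU1. TMEM175 measured 15.5 TPM in the female and 17.9 TPM in the male library, a quotient of 0.865 (0.814 to 0.920). The KCNU1 match goes against its own domain hit, which is a reverse transcriptase, and its best match is a low-quality snake protein. At 11.4 TPM in the female and 13.0 TPM in the male library it had a ratio of −0.18, and it is kept only because the rule names it.

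Domain hits, which the rule did not use, were present for 73 of the 100 features, 34 of them among the 36 features of at least 1000 bases. The ion transport domain was hit by 19 features, all voltage-gated, the inward rectifier domain by 18 of the 19 inward rectifiers and the 2-helix pore domain Ion_trans_2 by 7 tandem-pore and 2 SK features. The symbol named the same gene as the protein match for 67 features and another gene for 18, each time of the same family of channels, and 15 had no symbol. Assignment within families is therefore uncertain. Identifier stems were shared by 35 features in 15 groups, so those members may be parts or copies of one locus. The closest sequences came from 23 species, led by the Nile tilapia (Oreochromis niloticus) with 33 features.

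Proteins that assemble with these channels or open them were measured for 26 of 28 listed genes, including the HCN channels. Of these 26 genes 20 had a ratio below 0 and 6 above it, with a median of −0.11, where 56.2% of all features were below 0. None was past 2-fold towards the female library, beside 5.02% of all features. Towards the male library 2, or 7.69%, were, beside 10.1% of all features. Those 2 were ABCC9, the regulatory subunit of a muscle and vascular ATP-sensitive channel, at 10.7 TPM in the female and 26.2 TPM in the male library, and HCN2, at 3.62 TPM in the female and 8.90 TPM in the male library. Both were features under 500 bases. ABCC8, the partner of KCNJ11 in neurons, measured 22.95 TPM in the female and 25.1 TPM in the male library over 4986 bases. Among the Kv4 partners the values went both ways, with DPP6 at 32.3 TPM in the female and 32.9 TPM in the male library and KCNIP2 at 21.98 TPM in the female and 31.7 TPM in the male library. KCNIP1 measured 44.5 TPM in the female and 36.96 TPM in the male library, a quotient whose interval of 1.12 to 1.29 lay above 1. The 8 HCN features excluded by the rule had a median ratio of −0.05, with 1 past 2-fold towards the male library, beside 10.1% of all features.

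Genes that move potassium by other routes were measured for 11 of 13. The chloride extruder slc12a5, which moves potassium and chloride out of neurons together, measured 19.4 TPM in the female and 25.8 TPM in the male library, with an interval of 0.724 to 0.784. The importer slc12a2 measured 41.9 TPM in the female and 32.3 TPM in the male library, with an interval of 1.25 to 1.35. Of the 11 genes 9 had a ratio below 0 and 2 above it, with a median of −0.18, where 56.2% of all features were below 0. In this list 1 gene, or 9.09%, was past 2-fold towards the female library, beside 5.02% of all features. None was towards the male library, beside 10.1%. The 1 gene was the exporter slc12a7, on a feature of 259 bases at 17.1 TPM in the female and 6.74 TPM in the male library. It rested on 23 and 10 reads, with an interval of 1.16 to 5.99.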

How the data were processed

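Values were taken as the authors deposited them, in TPM, 1 column per library, with the length and the protein match of each feature. Per the submitters' processing notes, cutadapt, FastQC, Salmon and edgeR were used; versions, roles and a genome build are not given in the sources used here. Identifiers begin with TRINITY, the name of a de novo assembler. TPM fixes the total of a library, so strongly expressed features lower the others. The lowest value of the higher library was 6.01 TPM in the deposited table and 6.11 TPM among the members, so weaker features are not part of it. No member was listed at 0. The unit was read from the values, which sum to 943014 in the female and 937828 in the male column, and from Salmon among the tools.

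Columns were matched to libraries by title and grouped by the gender label. Features past 2-fold were counted on the log2(TPM + 0.5) scale. Class and gene were read from the protein match. Partner, potassium handling and marker genes were matched by symbol, with an a or b suffix allowed, and each was represented by its most abundant feature. A listed gene whose features carry another symbol counts as not found. Members and lists were chosen with earlier results of these data known. Named features were, per class, the 3 with the highest mean and the 2 of at least 500 bases with the largest ratio, all of at least 500 bases past 2-fold, and a list of well known brain channels. Other named features were added after their values were seen.

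Low values were whole multiples of 1 step for features of 1 length, taken as the worth of 1 read or read pair. The step was searched at each length from 201 to 419 bases, and beyond that 1 over the step followed a line in length fitted from 420 to 800 bases. Among values under 30 reads, 95.2% of 15787 female and 95.5% of 13798 male values lay within 0.1 of a whole number up to 419 bases. From 420 to 800 bases it was 94.5% of 382 female and 91.7% of 132 male values, against 20% by chance. Over 800 bases only 1 female and 5 male values were low enough to check, and 100% and 20% of them were whole, so read numbers and intervals of longer features rest on the line extrapolated and are not checked. The table then holds 24578834 female and 26670866 male reads. Intervals are exact (Clopper-Pearson) at 95%, cover counting error only, and duplicate reads would make them too narrow. Sequences of the features are not used here, and some genes that enter the counts and sums are not reported here. The work was done in Python 3.11.15 with pandas 2.3.3, NumPy 2.4.6 and SciPy 1.17.1, and plots in Matplotlib 3.10.9. Read recovery and counts were also run on simulated data, drawn from the same fitted steps and line with counting noise only. Such data cannot check the line over 800 bases or the spread between fish.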

Additional observations from a re-analysis of the deposited data

How the results depend on the processing

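No paired analysis was possible because each sex has 1 library. The count of features past 2-fold towards the male library was 17 to 22 with a pseudocount of 0.1 or 1, a minimum of 10 TPM or centring, against 20. The minimum of 10 TPM left 68 members, and under these settings the share over all features was 8.96% to 11.1%. The count was 2 of 43 features of at least 500 bases and 1 of 36 of at least 1000 bases, beside 1.91% and 1.01% of all features. With 1 feature per protein name it was 9 of 51, beside 10.1% of all features, which were not reduced in this way. At 1.5-fold it was 36, beside 20.5% of all features, and at 3-fold it was 4, beside 3.9%. Towards the female library the count was 3 at 1.5-fold, beside 11.9% of all features. It was 0 under each other alternative run, beside 0.373% to 5.86% of all features. The median over all members stayed between −0.32 and −0.13. The inward rectifier median changed sign to 0.018 at 500 bases, 0.057 at 1000 bases and 0.024 after centring, and the class sum to 0.10 (log2) at 1000 bases. The median of the 2 other features was −0.20 at 500 and at 1000 bases and −0.12 after centring.

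The log2 ratios of class sums moved as follows. At a minimum of 10 TPM they were −0.47 for voltage-gated and −0.67 for calcium-activated channels. At 500 bases they were −0.17 for voltage-gated, −0.13 for inward rectifier, −0.46 for calcium-activated and −0.29 for tandem-pore channels. At 1000 bases they were −0.19, −0.23 and −0.29 for voltage-gated, calcium-activated and tandem-pore channels. After centring they were −0.37 for voltage-gated, 0.15 for auxiliary, −0.17 for inward rectifier, −0.49 for calcium-activated and −0.51 for sodium-activated channels. With 1 feature per protein name they were 0.14 for auxiliary, −0.29 for inward rectifier, −0.67 for calcium-activated, −0.65 for sodium-activated and −0.45 for tandem-pore channels. Partner and potassium handling genes past the threshold numbered 0 at 500 bases, at 1000 bases and at 3-fold, against 3. Shares over all features there were 1.91%, 1.01% and 3.9% towards the male library. Towards the female library they were 0.747%, 0.373% and 1.64%. The cause was not tested. Depth limits the short features, of which the lowest had 2 reads.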
